A study of Rattus norvegicus with 16 samples.

Results

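In rat liver, 10 genes of superoxide and peroxide defence were followed through fasting and re-feeding: the superoxide dismutases Sod1, Sod2 and Sod3, the glutathione peroxidases Gpx1, Gpx3 and Gpx4, the glutathione synthesis genes Gclc, Gclm and Gss, and the glutathione reductase gene Gsr. They were taken from a fixed list of 10 gene symbols, with the brightest array row of each gene among rows that name exactly 1 symbol. All 10 had such a row, out of 13215 genes with a row of their own, and each had only that 1 row. The 16 livers came from male Sprague Dawley rats, 4 per group and 1 array per rat. The first group was fed, another was fasted into phase 2 of fasting (P2), another into phase 3 (P3), and the last was given food again for 2 days after reaching phase 3 (P3r2). Ages and fasting durations are not given in the labels used here. The series concerns oxidative stress in the fasting liver, and the comparisons ask how the transcripts of these enzymes differed between phases of fasting and after re-feeding.

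Superoxide dismutases turn superoxide into hydrogen peroxide, and glutathione peroxidases reduce peroxides with glutathione as the electron donor. Glutathione is built from glutamate and cysteine by glutamate-cysteine ligase (catalytic subunit Gclc, modifier subunit Gclm) and completed with glycine by glutathione synthetase (Gss); glutathione reductase (Gsr) returns the oxidised form to the reduced one at the expense of NADPH. The liver is a major site of glutathione synthesis and exports it to the blood. Several of these genes are known targets of the transcription factor Nrf2, which binds antioxidant response elements.

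All 10 genes lay above their array's median signal on all 16 arrays, the closest being Gpx3, 1.40 log2 units above it at its lowest. Array medians lay between 4.34 and 4.46 log2 units, and arrays of 1 group correlated at 0.966 to 0.992 over all rows. The labelled tissue was checked on hepatocyte markers: all 7 that were measured, of 10 listed, lay above the median on every array, and their mean was 12.40 to 12.76 log2 units. None of the 6 measured neutrophil markers lay above the median on every array of any group (means 2.98 to 3.74). Markers of other liver cells were present too. All 9 measured Kupffer cell and macrophage markers and all 6 of stellate cells and fibroblasts lay above the median on every array. So did all 3 of cholangiocytes and both of endothelial cells, while lymphocyte, erythroid, smooth muscle and adipocyte markers did so only in part. Array fed 2 stood apart. It had the narrowest spread of signal (SD 2.12 log2 units) and the lowest value of the 4 fed arrays for all 10 genes, as it did for 41.7% of all tested rows and 68.9% of rows above the median on every array. Results against fed are therefore given with and without it where that matters. The next narrowest spreads were those of P2 4 (SD 2.14) and P3 3 (SD 2.18). When limma weighted the arrays by quality, P3 3 (0.38), fed 2 (0.39) and P2 4 (0.41) had the lowest weights. Each p-value sets a difference between groups against the spread between these rats' arrays within groups, estimated over all 4 groups. Arrays outside a comparison, such as fed 2 in P3 against P2, therefore enter its SE. In whole liver fewer cells of a type and less RNA per cell cannot be told apart.

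**Figure D1:**
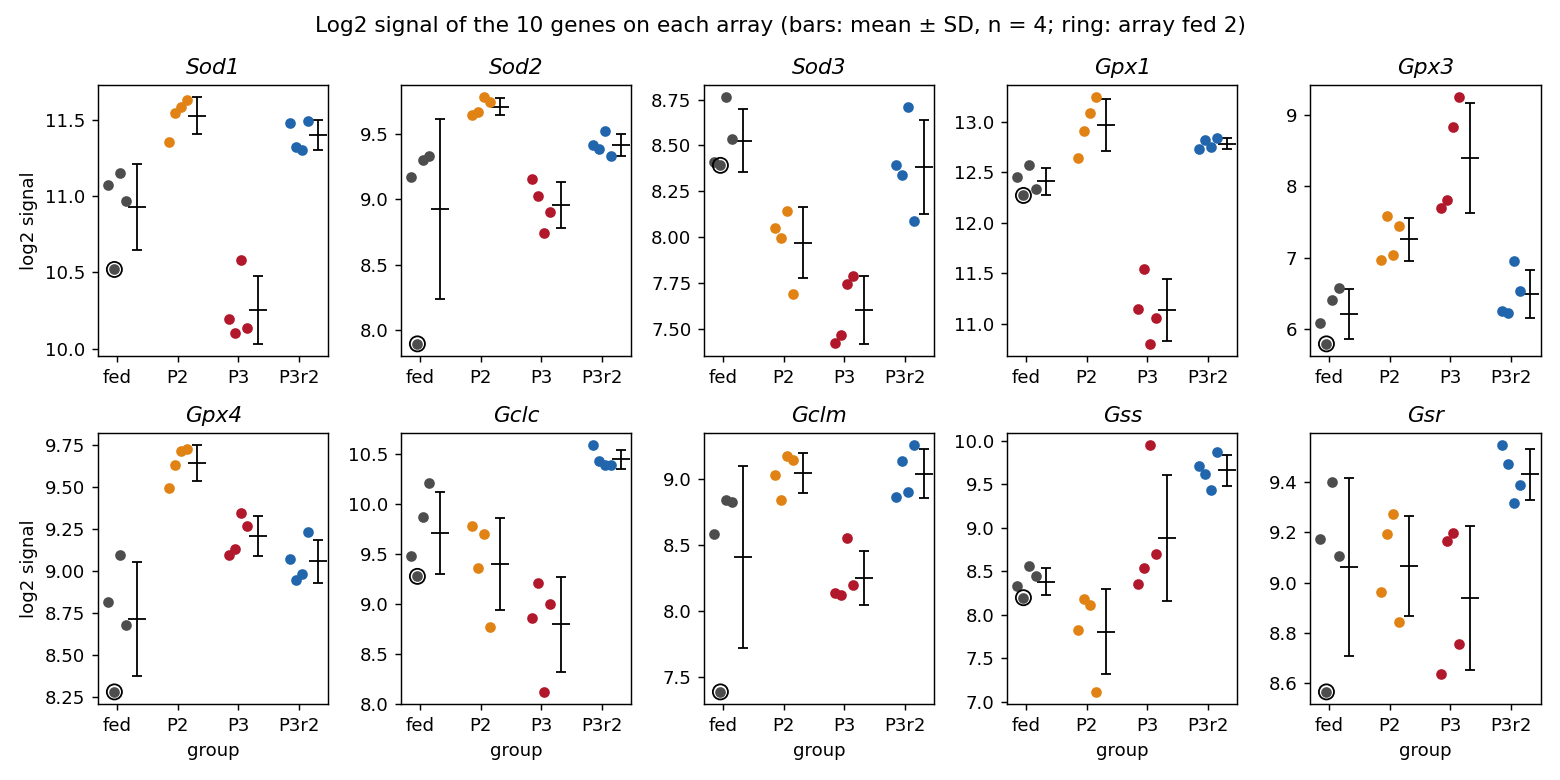
Log2 signal (y axis, arbitrary array units, a separate scale per panel) of each gene on each array, by group (x axis), with the mean and SD of 4 arrays as bars and array fed 2 ringed. Sod1 and Gpx1 were highest in P2 and lowest in P3, Gpx3 climbed from fed to P2 to P3, and Gclc and Gss were highest after re-feeding.

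The promoters of 8 of the 10 genes were found in RefSeq (assembly GRCr8); Sod3 and Gsr were not in the table used. They were searched on both strands, from 250 bases before to 50 bases after the start, for the antioxidant response element core TGACNNNGC, the forkhead box O site GTAAACA and the GC box GGGCGG. The first core was present in 2 of the 8 promoters and in 12.1% of the 33469 promoters in the table. No forkhead box O match lay in the 8 windows, against 3.78% of all promoters, and the GC box was in 7 of the 8, against 33.1% of all promoters and 49.1% of those of genes on the array. A match describes letters and is not evidence of binding. The 2 stretches with the antioxidant response element core, which belong to Gclm (chr2:213031937-213031996, plus strand) and Sod2 (chr1:50050170-50050229, minus strand), are shown with the core in capitals, as read on the opposite strand.
Gclm: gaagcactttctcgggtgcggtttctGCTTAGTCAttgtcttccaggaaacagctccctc
Sod2: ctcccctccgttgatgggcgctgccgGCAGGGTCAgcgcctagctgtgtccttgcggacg

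The 125 bases before the start of the 3 glutathione peroxidase genes are shown because these paralogues moved in different directions in P3. They lie at chr8:117905337-117905461 (Gpx1, plus strand), chr10:39529210-39529334 (Gpx3, plus strand) and chr7:10303630-10303754 (Gpx4, minus strand), with GC boxes of either strand in capitals. The first 2 capital boxes of Gpx4 share 1 base.
Gpx1: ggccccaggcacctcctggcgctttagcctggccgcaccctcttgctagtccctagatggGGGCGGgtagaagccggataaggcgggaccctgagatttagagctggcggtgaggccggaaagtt
Gpx3: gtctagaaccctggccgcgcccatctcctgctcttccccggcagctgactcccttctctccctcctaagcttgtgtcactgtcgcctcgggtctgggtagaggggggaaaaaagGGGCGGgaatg
Gpx4: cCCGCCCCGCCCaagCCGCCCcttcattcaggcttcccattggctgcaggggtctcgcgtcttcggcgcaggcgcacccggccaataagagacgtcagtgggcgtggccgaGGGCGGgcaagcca

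Superoxide dismutases. Sod1 encodes the copper and zinc enzyme of the cytosol (transcript cluster 7091445). Its log2 signal was 11.07, 10.52, 11.15 and 10.97 in fed arrays 1 to 4, and 11.36, 11.55, 11.58 and 11.63 in P2. It was 10.19, 10.10, 10.58 and 10.13 in P3 and 11.48, 11.33, 11.31 and 11.50 after re-feeding. The P2 arrays all lay above the fed arrays and the P3 arrays all below the P2 and re-fed arrays, while P3 3 (10.58) lay above fed 2 (10.52). Sod1 rose 1.52-fold in P2 (log2 change 0.60 ± 0.14 SE, limma adjusted p = 0.013) and was 1.60-fold lower in P3 than in fed (-0.68 ± 0.14, limma adjusted p = 0.0024). From P2 to P3 it fell 2.42-fold (-1.28 ± 0.14, limma adjusted p = 1.3e-05) and re-feeding raised it 2.22-fold (1.15 ± 0.14, limma adjusted p = 2.5e-05). Re-fed livers were 0.47 log2 units above fed ones without passing the threshold (limma adjusted p = 0.094, 95% interval 0.17 to 0.77), although the 2 groups did not overlap.

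Sod2 encodes the manganese enzyme of the mitochondrial matrix (7046351). Fed arrays read 9.17, 7.89, 9.30 and 9.33 log2 units, P2 arrays 9.64, 9.66, 9.78 and 9.74, P3 arrays 9.16, 9.02, 8.74 and 8.90, and re-fed arrays 9.41, 9.38, 9.52 and 9.33. The P2 arrays lay above all others, and fed 2 lay far below every other array. The rise in P2 against fed was 0.78 ± 0.24 on the log2 scale (1.72-fold, limma adjusted p = 0.042). Without fed 2 it was smaller, 0.44 ± 0.11 (limma adjusted p = 0.017), with the other 3 fed arrays close together. Leaving out fed 1 or any 1 P2 array lost this call (limma adjusted p = 0.054 to 0.098). So did fitting the 2 groups alone (limma adjusted p = 0.13) and median centring (limma adjusted p = 0.058). From P2 to P3 the signal changed by -0.75 ± 0.24 (1.68-fold lower, limma adjusted p = 0.032), a call lost without any 1 of the P2 arrays, P3 2, P3 3 or P3 4 (limma adjusted p = 0.051 to 0.073). The same call held in all 12 settings other than leaving out 1 array, at the same threshold. Without the 3 arrays of narrowest spread the change was -0.67 ± 0.10 (limma adjusted p = 0.00038). Against fed, P3 differed by 0.03 ± 0.24 (95% interval -0.47 to 0.53), and by -0.31 ± 0.11 without fed 2 (limma adjusted p = 0.054). After re-feeding Sod2 lay 0.46 ± 0.24 above P3 with no overlap, which did not pass the threshold (limma adjusted p = 0.23). That change was 0.23 after quantile normalization (limma adjusted p = 0.40), and it passed without the 3 arrays of narrowest spread (0.39, limma adjusted p = 0.0095) and with the 2 groups fitted alone (0.021).

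Sod3 encodes the enzyme secreted to the extracellular space (7126191), and it was called lower in P2, where Sod1 and Sod2 were called higher. It measured 8.41, 8.39, 8.76 and 8.54 log2 units in fed, 8.05, 7.99, 8.14 and 7.69 in P2, 7.42, 7.47, 7.74 and 7.79 in P3, and 8.39, 8.34, 8.71 and 8.09 after re-feeding. Both fasted groups lay wholly below the fed group, and the re-fed arrays overlapped the fed ones, with P3r2 4 (8.09) inside the P2 range. The decrease was 1.47-fold in P2 (-0.56 ± 0.15, limma adjusted p = 0.023) and 1.89-fold in P3 (-0.92 ± 0.15, limma adjusted p = 0.00024), followed by a 1.71-fold increase on re-feeding (0.78 ± 0.15, limma adjusted p = 0.0011). The P2 decrease was lost without fed 3, fed 4 or P2 4 (limma adjusted p = 0.058 to 0.079). It was also lost after quantile normalization (-0.44, limma adjusted p = 0.056) and without the 3 arrays of narrowest spread (-0.51, limma adjusted p = 0.055). P3 against P2 was -0.37 ± 0.15 without passing (limma adjusted p = 0.089), and passed without P2 4 (-0.46, limma adjusted p = 0.045), after quantile normalization (-0.58, limma adjusted p = 0.0098), with array weights (0.048), without the 3 arrays of narrowest spread (fed 2, P2 4 and P3 3; 0.035) and with the length trend removed (0.035). Of the 6 measured stellate cell and fibroblast markers, 1 rose and 3 fell in P3 against fed: Lrat, which makes retinyl esters in stellate cells, fell by 1.28 ± 0.22, Pdgfrb fell by 1.22 ± 0.23 and Col3a1 fell by 1.65 ± 0.50, and Dcn, a matrix proteoglycan, rose by 3.80 ± 0.39 log2 units. The mean of the list was 6.64 to 7.46 in fed, 6.71 to 7.12 in P2, 6.89 to 8.12 in P3 and 6.64 to 7.26 after re-feeding, and its part in the Sod3 and Gpx3 results was not tested. Of 4 smooth muscle markers, none passed in P3 against fed by limma (0 also at an unadjusted p under 0.05).

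Glutathione peroxidases. Gpx1, the selenium-containing peroxidase of cytosol and mitochondria (7154173), had the largest fall of the 10 genes between the fasting phases. It measured 12.46, 12.27, 12.57 and 12.34 log2 units in fed, 12.64, 12.90, 13.08 and 13.24 in P2, 11.14, 11.54, 10.80 and 11.06 in P3, and 12.73, 12.82, 12.75 and 12.84 after re-feeding. All P3 arrays lay below all others, and all fed arrays lay below the P2 and re-fed arrays. Gpx1 was 2.42-fold lower in P3 than in fed (-1.27 ± 0.15, limma adjusted p = 1.6e-05) and 3.56-fold lower than in P2 (-1.83 ± 0.15, limma adjusted p = 1e-06). Re-feeding raised it 3.14-fold (1.65 ± 0.15, limma adjusted p = 1.3e-06). The smaller rise in P2 (1.47-fold, 0.56 ± 0.15, limma adjusted p = 0.026) was lost without fed 1, fed 2, fed 4, P2 3 or P2 4 (limma adjusted p = 0.050 to 0.086). This rise was lost too with the 2 groups fitted alone (limma adjusted p = 0.052) and without the 3 arrays of narrowest spread (0.42, limma adjusted p = 0.076). It was also 0.24 (limma adjusted p = 0.26) once the trend of signal with gene length was taken out of each array; Gpx1 spans 1127 bases, shorter than all but 1.25% of the genes compared.

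Gpx3, the secreted plasma peroxidase (7067691), went the other way in P3. Fed arrays read 6.08, 5.79, 6.40 and 6.57 log2 units, P2 arrays 6.96, 7.58, 7.04 and 7.45, P3 arrays 7.70, 7.80, 8.84 and 9.25, and re-fed arrays 6.24, 6.23, 6.96 and 6.53. The fed, P2 and P3 groups did not overlap, and P3 was spread over more than 1.5 log2 units. The re-fed arrays lay within the fed range except P3r2 3 (6.955), which lay just below the lowest P2 array (6.964). The increase against fed was 4.56-fold in P3 (2.19 ± 0.31, limma adjusted p = 8.5e-05) and 2.07-fold in P2 (1.05 ± 0.31, limma adjusted p = 0.038). P3 was 2.21-fold above P2 (1.14 ± 0.31, limma adjusted p = 0.014), and re-feeding lowered Gpx3 3.76-fold (-1.91 ± 0.31, limma adjusted p = 0.00032). The P2 call was lost without any 1 of the fed arrays, P2 2 or P2 4 (limma adjusted p = 0.051 to 0.10), and without the 3 arrays of narrowest spread (0.84, limma adjusted p = 0.15). The P3 increase against fed and the fall on re-feeding kept their calls in every alternative at the same threshold.

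Gpx4 reduces lipid hydroperoxides in membranes (7322327). Its values were 8.82, 8.28, 9.10 and 8.68 log2 units in fed, 9.49, 9.63, 9.72 and 9.73 in P2, 9.10, 9.13, 9.35 and 9.27 in P3, and 9.07, 8.95, 8.98 and 9.24 after re-feeding. P2 lay above every other group, and the lowest P3 array barely cleared the highest fed one. Gpx4 rose 1.90-fold in P2 (0.93 ± 0.14, limma adjusted p = 0.0011), and 0.78 without fed 2 (limma adjusted p = 0.0016). It was 1.41-fold above fed in P3 (0.49 ± 0.14, limma adjusted p = 0.022), which was lost without fed 2, fed 4, P3 3 or P3 4 (limma adjusted p = 0.051 to 0.061). This call was also lost with the 2 groups fitted alone (limma adjusted p = 0.097) and without the 3 arrays of narrowest spread (0.30, limma adjusted p = 0.13). The fall from P2 to P3 was 1.35-fold (-0.43 ± 0.14, limma adjusted p = 0.039) and was lost without P2 2, P2 3, P2 4, P3 1, P3 2 or P3 4 (limma adjusted p = 0.065 to 0.10), after quantile normalization (-0.35, limma adjusted p = 0.059) or median centring (0.056), and with an intensity trend in eBayes (0.053). Re-feeding moved it by -0.15 ± 0.14 (95% interval -0.45 to 0.15, limma adjusted p = 0.58); after quantile normalization that change was -0.42 and passed (limma adjusted p = 0.025).

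Glutathione synthesis and recycling. Gclc, the catalytic subunit of the first enzyme of synthesis (7338247), was lowest in P3 and highest after re-feeding. It measured 9.49, 9.28, 9.87 and 10.21 log2 units in fed, 9.78, 9.36, 9.71 and 8.77 in P2, 8.86, 9.21, 8.12 and 9.003 in P3, and 10.59, 10.43, 10.39 and 10.39 after re-feeding. The re-fed arrays were tightly grouped above all others, and the P3 arrays lay below all fed arrays but overlapped P2. Re-feeding raised Gclc 3.14-fold from P3 (1.65 ± 0.26, limma adjusted p = 0.00022). P3 was 1.88-fold below fed (-0.91 ± 0.26, limma adjusted p = 0.018), which was lost without fed 3, fed 4 or P3 3 (limma adjusted p = 0.052 to 0.067). Fitting the 2 groups alone lost it as well (limma adjusted p = 0.057). P2 against fed was -0.31 ± 0.26 (95% interval -0.85 to 0.24), and -0.14 without fed 4 and -0.10 without P2 4. P3 against P2 was -0.61 ± 0.26 without passing (limma adjusted p = 0.11), and was -0.38 without P3 3. It passed without P2 4 (-0.82, limma adjusted p = 0.031), without the 3 arrays of narrowest spread (-0.59, limma adjusted p = 0.027) and with the length trend removed (-0.88, limma adjusted p = 0.0018).

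Gclm, the modifier subunit (7198646), was lowest in P3 and near its P2 level again after re-feeding. It measured 8.59, 7.39, 8.84 and 8.82 log2 units in fed, 9.03, 8.84, 9.17 and 9.14 in P2, 8.13, 8.12, 8.56 and 8.20 in P3, and 8.86, 9.14, 8.90 and 9.25 after re-feeding. P3 lay below P2 and the re-fed arrays without overlap, and fed 2 was the lowest of all 16 arrays. Gclm fell 1.73-fold from P2 to P3 (-0.79 ± 0.25, limma adjusted p = 0.031) and rose 1.73-fold on re-feeding (0.79 ± 0.25, limma adjusted p = 0.037). The first call was lost without P2 1, P2 3, P2 4, P3 1, P3 2 or P3 4 (limma adjusted p = 0.056 to 0.076), and the second without P3 1, P3 2, P3 4 or any 1 re-fed array (limma adjusted p = 0.052 to 0.096). Both calls held in all 12 settings other than leaving out 1 array, at the same threshold. Without the 3 arrays of narrowest spread the changes were -0.86 ± 0.13 and 0.89 ± 0.12 (limma adjusted p = 0.00039 and 0.00016). The difference in P3 against fed was -0.16 ± 0.25 and did not pass (limma adjusted p = 0.78). It passed without fed 2 (-0.50, limma adjusted p = 0.020) and without the 3 arrays of narrowest spread (-0.60, limma adjusted p = 0.0050). In P2 Gclm was 0.64 ± 0.25 above fed (limma adjusted p = 0.10), and 0.30 without fed 2 (limma adjusted p = 0.17). That change passed after quantile normalization (0.66, limma adjusted p = 0.036) and with the length trend removed (0.68, limma adjusted p = 0.025).

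Gss, which adds glycine in the last step of synthesis (7246972), was lowest in P2 and highest after re-feeding. It measured 8.33, 8.20, 8.56 and 8.44 log2 units in fed, 7.83, 8.18, 8.11 and 7.11 in P2, 8.35, 8.54, 9.95 and 8.70 in P3, and 9.71, 9.62, 9.44 and 9.87 after re-feeding. P2 lay just below fed without overlap, and P3 3 (9.95) lay above every re-fed array while the other 3 P3 arrays lay well below them. The change in P2 against fed was -0.57 ± 0.29 (95% interval -1.19 to 0.05), which did not pass (limma adjusted p = 0.20), and -0.34 without P2 4. P3 was 2.11-fold above P2 (1.08 ± 0.29, limma adjusted p = 0.014), lost without P2 4 (0.85, limma adjusted p = 0.052). The change was 0.72 without P3 3 and 0.49 without the 3 arrays of narrowest spread, and passed in both (limma adjusted p = 0.021 each). Re-feeding added 0.77 ± 0.29 to P3 without passing (limma adjusted p = 0.084), and 1.13 without P3 3, where it passed (limma adjusted p = 0.0014). Re-fed livers were 2.42-fold above fed ones (1.28 ± 0.29, limma adjusted p = 0.029), with no overlap, and the call was lost without fed 1, fed 2, fed 4 or any 1 re-fed array (limma adjusted p = 0.056 to 0.086), and after quantile normalization (1.09, limma adjusted p = 0.11).

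Gsr, which recycles oxidised glutathione (7152193), passed the threshold in none of the 5 comparisons. It measured 9.18, 8.56, 9.40 and 9.11 log2 units in fed, 8.96, 9.19, 9.27 and 8.84 in P2, 8.63, 9.17, 9.20 and 8.75 in P3, and 9.55, 9.47, 9.32 and 9.39 after re-feeding. Fed, P2 and P3 overlapped throughout, and the re-fed arrays lay above all P2 and P3 arrays. The changes against fed were 0.00 ± 0.17 in P2 (95% interval -0.37 to 0.37) and -0.12 ± 0.17 in P3 (-0.49 to 0.25). Without fed 2 they were -0.16 and -0.29 (limma adjusted p = 0.52 and 0.26), and the P3 change ranged from -0.29 to -0.011 with 1 array left out. Re-feeding gave 0.49 ± 0.17 over P3 (limma adjusted p = 0.063), and this passed without P3 2 or P3 3 (limma adjusted p = 0.041 to 0.048). It also passed in 6 of 12 other settings. Among these were array weights (0.56, limma adjusted p = 0.0078), the 3 arrays of narrowest spread left out (0.58, 0.0079) and the length trend removed (0.45, 0.044). After quantile normalization it was 0.29 (limma adjusted p = 0.28).

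**Figure D2:**
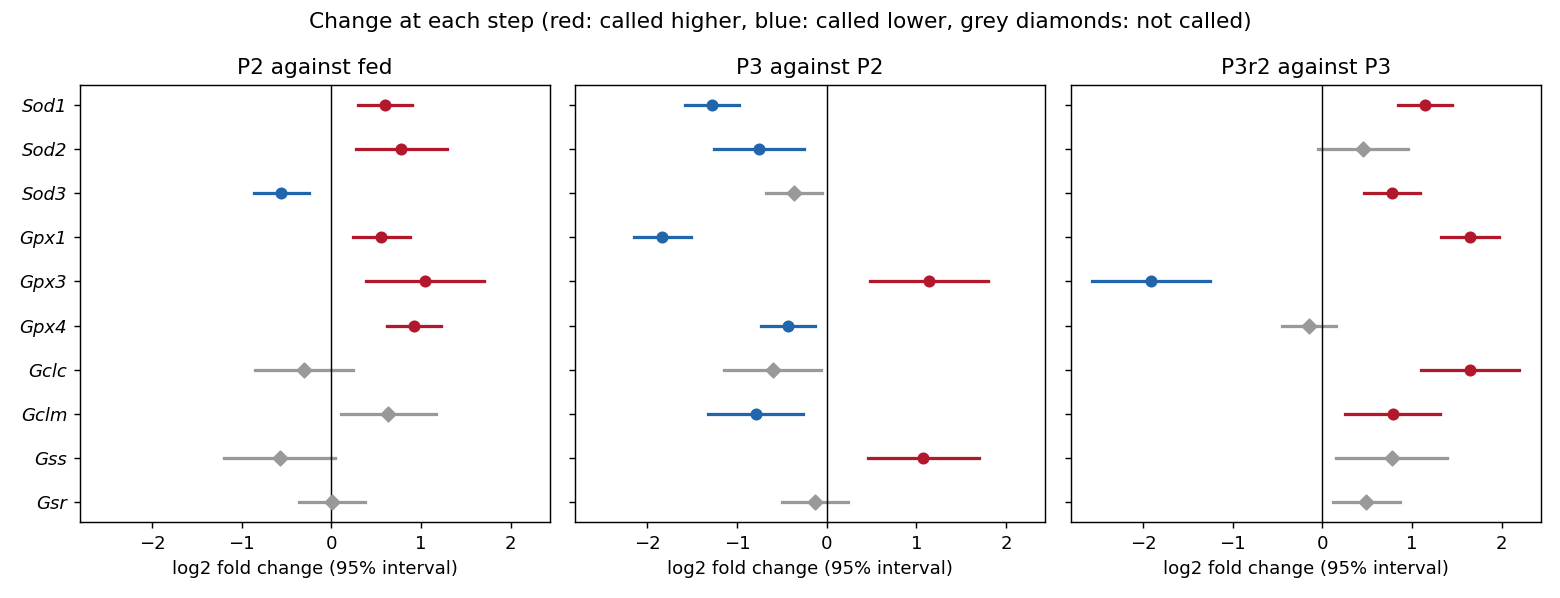
Log2 fold change (x axis) of each gene (y axis) at the 3 successive steps fed to P2, P2 to P3 and P3 to re-feeding, as the limma estimate with its 95% interval; red is called higher, blue called lower, grey not called. In P2 against fed 5 genes were called higher and Sod3 lower, in P3 against P2 5 were lower and Gpx3 and Gss higher, and on re-feeding 5 were higher and Gpx3 lower.

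Counted over the 10 genes, P2 against fed had 5 genes higher and 1 lower, when 12.7% of the 18885 tested rows passed in either direction (6.13% higher, 6.58% lower). Among rows brighter than the median row, to which these genes belong, 21.8% passed. The median change was 0.58 for the 10 genes and 0.05 for all rows, and 7 genes had groups that did not overlap (19.2% of all rows). Without fed 2, 3 were higher and 1 lower with a median of 0.37. With the length trend removed, 5 were higher and 1 lower with a median of 0.34, as Gpx1 was lost and Gclm gained. In that setting Sod1 changed by 0.45 and Gpx4 by 0.69. Leaving out fed 1 or fed 4 left 3 calls, and leaving out P2 4 left 2. Sod1 and Gpx4 were the 2 that kept the call in every alternative at this threshold.

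In P3 against fed, 2 genes were higher (Gpx3, Gpx4) and 4 lower (Sod1, Sod3, Gpx1, Gclc), with 19.3% of all rows (11.3% higher, 8.06% lower) and 35.3% of brighter rows called. The median was -0.14 against 0.03 for all rows, and -0.41 without fed 2, when 1 was higher and 5 lower. Of the 10 genes, 5 had non-overlapping groups, against 19.6% of all rows. Sod1, Sod3, Gpx1 and Gpx3 kept their calls in every alternative at this threshold.

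P3 against P2 gave the largest count: 2 genes higher (Gpx3, Gss) and 5 lower (Sod1, Sod2, Gpx1, Gpx4, Gclm), when 22% of all rows (13.5% higher, 8.53% lower) and 38.8% of brighter rows passed. The median change was -0.52, against -0.03 for all rows, and 7 genes did not overlap (21.9% of all rows). The count was 4 without P2 3, P3 2 or P3 4, and with the 2 groups fitted alone Gpx3 and Gss did not pass (limma adjusted p = 0.054 and 0.080). Sod1 and Gpx1 kept the call in every alternative at this threshold.

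On re-feeding, 5 genes rose (Sod1, Sod3, Gpx1, Gclc, Gclm) and Gpx3 fell, when 18.4% of all rows (10.5% higher, 7.93% lower) and 33.1% of brighter rows passed. The median change was 0.78, against -0.03 for all rows, and 8 genes did not overlap (22.8% of all rows). All but the Gclm call held in every alternative at this threshold. This comparison shares the P3 arrays with the preceding ones.

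Re-fed against never fasted livers had 1 call, Gss, when 2.72% of all rows (2.21% higher, 0.514% lower) and 5.06% of brighter rows passed. The mean was higher in the re-fed group for 9 of the 10 genes, all but Sod3, and for 54.6% of all rows, and the median was 0.42 for the genes and 0.02 for all rows (0.25 for the genes without fed 2). The 5 genes without overlap were Sod1, Gpx1, Gclc, Gclm and Gss (12.5% of all rows). No gene passed without fed 2 by limma, when 3 had an unadjusted p under 0.05. The 95% intervals of the 9 uncalled changes reached up to 1.28 log2 units, for Gclc.

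**Figure D3:**
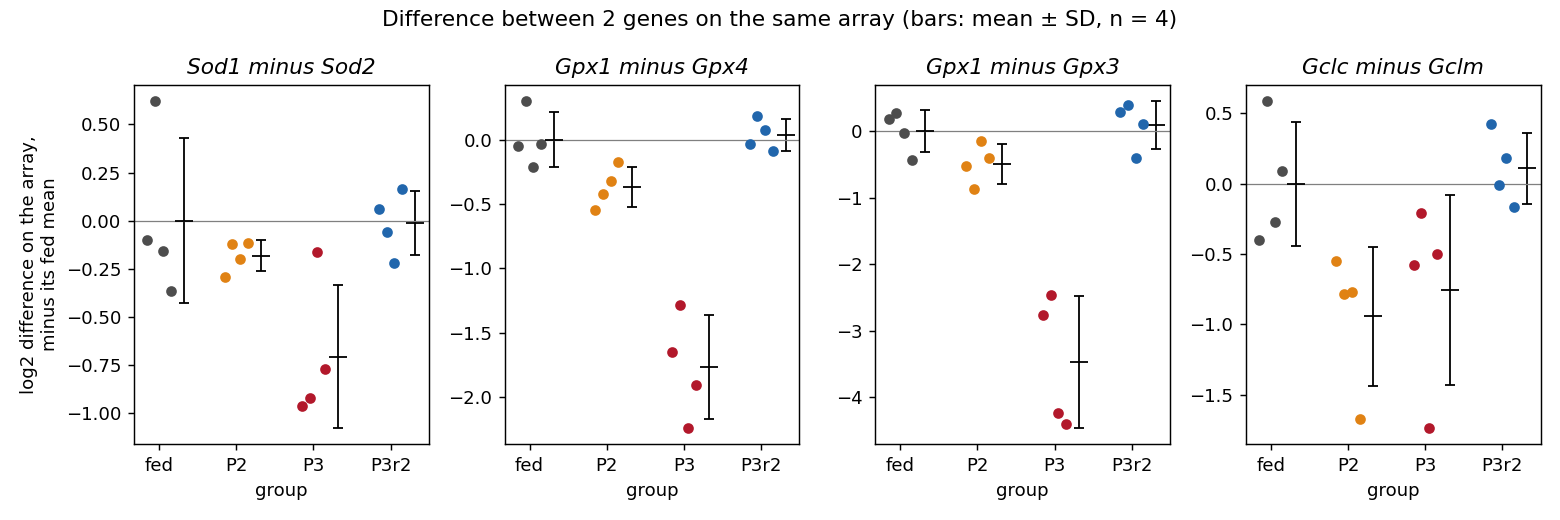
Difference between the log2 signals of 2 genes on the same array, minus the mean of that difference in fed (y axis), by group (x axis), with the mean and SD of 4 arrays as bars. Gpx1 fell away from both Gpx3 and Gpx4 in P3, and all 4 differences lay near the fed mean after re-feeding.

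The difference between 2 genes on the same array was read only as its shift from the fed mean, since rows differ in probe response. Fed 2 was the highest fed array in all 4 differences, at 0.62 for Sod1 minus Sod2, 0.30 for Gpx1 minus Gpx4, 0.28 for Gpx1 minus Gpx3 and 0.59 for Gclc minus Gclm, and it enters the fed mean. Gpx1 minus Gpx4 shifted by -1.77 ± 0.40 (SD, n = 4) in P3, with arrays between -2.24 and -1.28 when the fed arrays lay between -0.21 and 0.30. Gpx1 minus Gpx3 shifted by -3.46 ± 1.00 in P3, from -4.40 to -2.46 (fed -0.43 to 0.28). Both lay near the fed mean after re-feeding, at 0.03 ± 0.12 and 0.10 ± 0.36. For the subunits of glutamate-cysteine ligase, Gclc minus Gclm was -0.94 ± 0.50 in P2 (-1.67 to -0.55) and 0.11 ± 0.25 after re-feeding, with fed arrays from -0.40 to 0.59. Its P3 mean of -0.75 ± 0.67 rested largely on P3 3 (-1.74): the other P3 arrays were at -0.58, -0.21 and -0.50, of which P3 2 lay inside the fed range. Sod1 minus Sod2 shifted by -0.71 ± 0.37 in P3, where P3 3 stood at -0.16 among the P2 arrays (-0.18 ± 0.08). These shifts are descriptions, with no test.

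The genes that supply metal, selenium and NADPH to these enzymes were taken from lists of known function. Beside the counts of these and the following lists, 12.7% of all rows passed in P2 against fed and 19.3% in P3 against fed. The share was 22% in P3 against P2, 18.4% on re-feeding and 2.72% in re-fed against fed. Among brighter rows the shares were 21.8%, 35.3%, 38.8%, 33.1% and 5.06% in the same order. For metal delivery to superoxide dismutases, 8 of 12 genes were measured. Ccs, the chaperone that loads copper into Sod1, rose by 0.78 ± 0.19 in P2 (limma adjusted p = 0.014), fell by 0.83 ± 0.19 in P3 against fed (limma adjusted p = 0.0039) and rose by 1.44 ± 0.19 on re-feeding (limma adjusted p = 4.1e-05), the directions seen for Sod1. The copper chaperone Atox1 moved the same way, by 1.14 ± 0.21, -0.85 ± 0.21 and 0.98 ± 0.21 (limma adjusted p = 0.0034, 0.0083 and 0.0034). The copper importer Slc31a1 fell by 1.37 ± 0.18 in P3 and the metal importer Slc39a8 fell by 1.40 ± 0.25 (limma adjusted p = 4.2e-05 and 0.00058). In P3 against fed none of the 8 rose and 4 fell, with a median of -0.71. On re-feeding 4 rose and none fell (median 0.94), and from P2 to P3 1 rose and 5 fell (median -0.69). In P2 against fed 3 rose and 1 fell (median -0.39), and 2 were called without fed 4 or P2 4. Re-fed against fed none passed by limma, and 1 had an unadjusted p under 0.05.

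For selenoprotein synthesis, which makes Gpx1, Gpx3 and Gpx4, 8 of 12 genes were measured, and their calls went both ways. Scly, which frees selenium from selenocysteine, fell by 1.53 ± 0.16 in P2, fell by 2.34 ± 0.16 in P3, both against fed, and rose by 2.73 ± 0.16 on re-feeding (limma adjusted p = 7e-05, 6.4e-08 and 1e-08). Selenop, the selenium carrier secreted by liver, rose by 0.54 ± 0.12 in P2 (limma adjusted p = 0.012) and fell by 0.99 ± 0.12 from P2 to P3 (limma adjusted p = 3.7e-05). Eefsec and Secisbp2 were called the other way, higher by 0.75 and 0.68 in P3 against fed and by 1.09 and 1.24 in P3 against P2. Counts of genes higher and lower were 1 and 2 in P2 against fed, 2 and 2 in P3 against fed (2 calls in all without fed 3), 3 and 2 in P3 against P2, and 3 and 0 on re-feeding, with medians of -0.18, -0.02, 0.09 and 0.09. None passed in re-fed against fed by limma, and 4 had an unadjusted p under 0.05. Among the other glutathione peroxidases 2 of 5 were measured, and Gpx2 alone was called, at 0.52 ± 0.12 in P2 against fed (limma adjusted p = 0.013).

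NADPH for Gsr comes from several enzymes, of which 7 of 10 were measured. The cytosolic isocitrate dehydrogenase Idh1 and the mitochondrial transhydrogenase Nnt changed by -2.68 ± 0.32 and -2.71 ± 0.39 in P3 against fed and rose by 2.77 ± 0.32 and 2.85 ± 0.39 on re-feeding (limma adjusted p = 1.7e-05, 0.00010, 1.4e-05 and 6.9e-05). The malic enzyme Me1 fell by 1.98 ± 0.38 in P2 (limma adjusted p = 0.0045) and after re-feeding lay 2.01 ± 0.38 above fed (limma adjusted p = 0.010). The folate enzyme Mthfd1 rose by 1.14 ± 0.18 in P3 (limma adjusted p = 0.00024). Counts of genes higher and lower were 1 and 3 in P2 (2 calls without any 1 of the fed arrays, P2 2 or P2 4), 2 and 3 in P3 against fed (3 calls without P3 1), 3 and 3 in P3 against P2, 4 and 1 on re-feeding, and 1 and 0 in re-fed against fed. Gsr itself passed in none of these comparisons, apart from the alternatives given above for re-feeding.

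**Figure D4:**
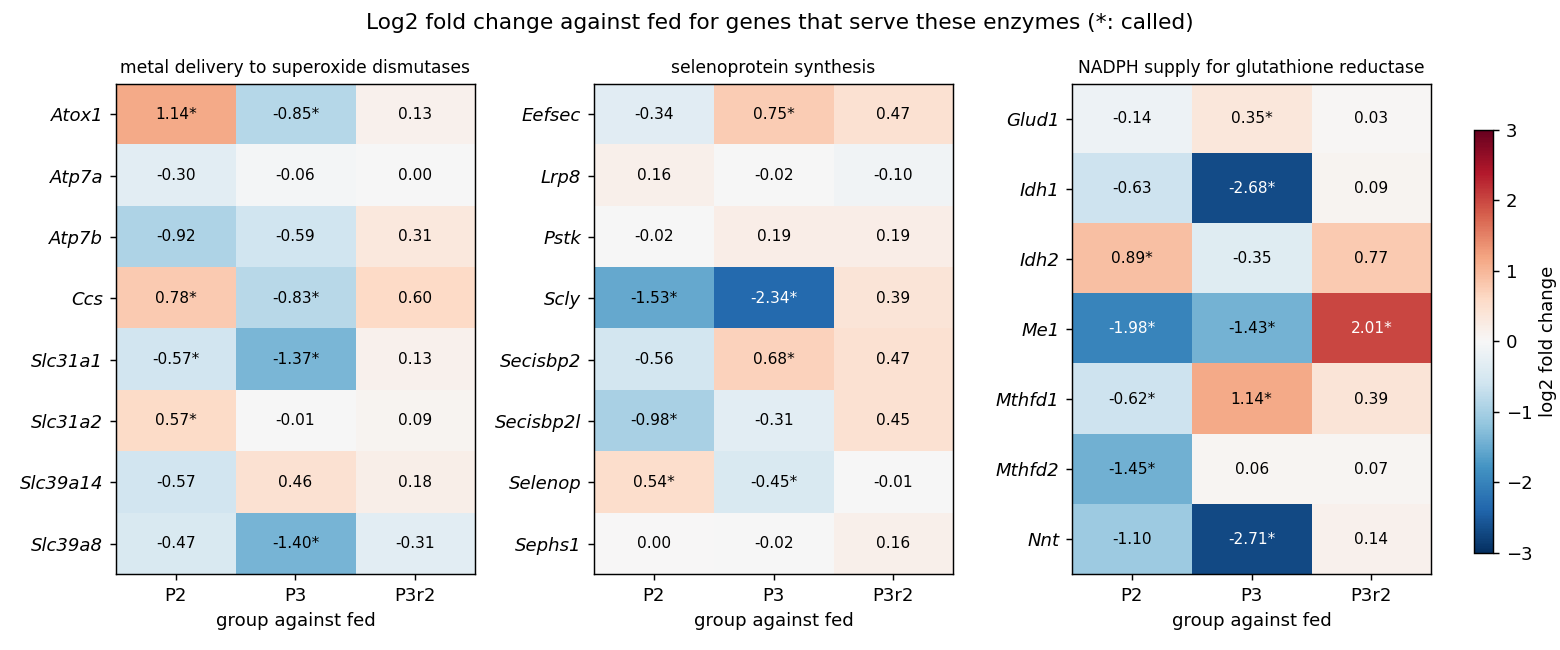
Log2 fold change against fed (colour, from -3 to 3, and printed value) of every measured gene (y axis) of the metal delivery, selenoprotein synthesis and NADPH supply lists in P2, P3 and re-fed livers (x axis), with calls marked by an asterisk. Ccs and Atox1 were higher in P2 and lower in P3, Scly, Idh1 and Nnt were lowest in P3, and Me1 was called higher after re-feeding.

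Of the genes that supply cysteine and methionine to glutathione, 11 of 13 were measured. In P3 against fed 5 rose and 3 fell (median 0.27): Slc3a2, the heavy chain of the cystine and amino acid exchangers, rose by 1.93 ± 0.16, Cbs, which forms cystathionine from homocysteine, by 1.28 ± 0.21, and Mat1a, which makes S-adenosylmethionine, by 1.25 ± 0.11 (limma adjusted p = 6.8e-07, 0.00029 and 9.2e-07). Csad, which diverts cysteine to taurine, fell by 2.83 ± 0.29 and Cth, which releases cysteine from cystathionine, fell by 1.16 ± 0.18 (limma adjusted p = 3.5e-06 and 0.00020). The cystine exchanger chain Slc7a11 changed by 0.05 ± 0.11 (limma adjusted p = 0.85). Counts higher and lower were 2 and 1 in P2 against fed, 3 and 2 in P3 against P2 and 2 and 5 on re-feeding. None passed in re-fed against fed by limma, where 4 had an unadjusted p under 0.05, and 1 passed without fed 2.

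Among 11 measured genes of 16 for glutathione breakdown and export, Chac1, which degrades glutathione in the cytosol, rose by 3.35 ± 0.32 in P3 against fed and fell by 3.32 ± 0.32 on re-feeding (limma adjusted p = 1.7e-06 and 1.9e-06). Anpep, an aminopeptidase that splits the dipeptide left from glutathione, fell by 2.74 ± 0.46 in P3 and rose by 2.61 ± 0.46 on re-feeding (limma adjusted p = 0.00044 and 0.00073). Counts higher and lower were 0 and 1 in P2 against fed, 1 and 4 in P3 against fed, 1 and 3 in P3 against P2, 3 and 2 on re-feeding and 1 and 0 in re-fed against fed. The single P2 call, Lap3, was lost without any 1 fed or P2 array other than fed 2, and the call of re-fed livers without fed 1, fed 2, P3r2 1 or P3r2 2. There were 3 calls in P3 against fed without fed 3, fed 4 or P3 4, and 3 on re-feeding without P3 3, P3r2 1 or P3r2 2.

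Nrf2 itself, listed as Nfe2l2, fell by 0.76 ± 0.15 in P2 and fell by 0.59 ± 0.15 in P3 against fed (limma adjusted p = 0.0055 and 0.011). Of the 13 measured genes of 16 in the list of Nrf2, its partners and its targets, 6 rose and 3 fell in P3 against fed (median 0.46). The partner or competitor genes Maff and Bach1 rose by 2.78 ± 0.25 and 2.39 ± 0.20, and the target Hmox1, a haem oxygenase, by 2.62 ± 0.41, while the target Ephx1, an epoxide hydrolase, fell by 2.13 ± 0.16 (limma adjusted p = 9.8e-07, 6.8e-07, 0.00020 and 2e-07). Gclc fell, and the change of Gclm did not pass, in the same comparison. Keap1, which holds Nrf2 in the cytosol, was at -0.02 ± 0.21 (limma adjusted p = 0.97). Counts higher and lower were 1 and 3 in P2 (2 calls without fed 1 or fed 4), 7 and 2 in P3 against P2, 3 and 5 on re-feeding, and 0 and 1 in re-fed against fed, a call lost without any 1 fed array but fed 2 or any 1 re-fed array.

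All 7 measured genes of 8 in the list of Sod2 regulators were called higher in P3 than in P2 (median 1.07). In that comparison 13.5% of all rows were called higher, and the median of all rows was -0.03. Sod2 was called lower there, a call that held in 1 of the 8 fits with 1 array left out and in all 12 other settings at the same threshold. Ppargc1a, a coactivator of mitochondrial genes, rose by 5.10 ± 0.29 and its partner Esrra by 2.13 ± 0.17 in P3 against fed, and both fell on re-feeding (-4.01 ± 0.29 and -1.48 ± 0.17) (limma adjusted p = 9e-09, 4.8e-07, 9.9e-08 and 1.8e-05). In P3 against fed 6 of 7 rose (median 0.84), and on re-feeding 5 fell (median -0.75). In P2 against fed 2 rose, Ppargc1a and Esrra. Both lost the call without fed 2, P2 1 or P2 2, Ppargc1a also without fed 3, and Esrra also without fed 1, fed 4, P2 3 or P2 4. No regulator passed in re-fed against fed by limma, where 2 had an unadjusted p under 0.05, and 1 passed without fed 3.

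The likeness of each gene's profile to those of other genes was measured as the root mean square difference of the centred log2 values over the 16 arrays, where 0 is identical. The nearest 2 were Cmbl (0.15) and Sec11a (0.16) for Sod1, Acat1 and Ebag9 (0.15 each) for Sod2, and Gga2 (0.15) and Tpx2 (0.16) for Sod3. For the peroxidases they were Mgst1 and Tmem53 (0.18 each) for Gpx1, Nob1 (0.30) and Polr1c (0.32) for Gpx3, and Ndufb11 and Anapc11 (0.13 each) for Gpx4. Gclc was nearest to Tmlhe (0.22) and Cobl (0.24), Gclm to Cib1 (0.17) and Mrps15 (0.18), Gsr to Prkag1 (0.16) and Cr1l (0.17), and Gss to Gys2 (0.40) and Vac14 (0.42). Gss and Gpx3 had no gene as near as the other 8 did, while their own profiles varied most along with Gpx1, at 0.78, 0.94 and 0.74 root mean square from their means.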

How the data were processed

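Liver RNA of 16 rats was hybridised to Affymetrix Rat Exon 1.0 ST arrays. Per the submitters' processing notes the authors used GCOS 1.4 and Expression Console 1.1. The deposited values are on a log2 scale, judged from their range (0.84 to 13.63); no source used here gives the background correction, summarisation or genome build. Precision is limited by how many arrays there are. Of 19418 rows, 533 with identifiers below the annotated range were left out and 18885 tested. Of those, 13327 carried 1 symbol, 620 several and 4938 none.

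Values were used as deposited. Limma 3.58.1 in R 4.3.3 fitted 1 mean per group over all 16 arrays (lmFit, eBayes), with two-sided tests of 5 contrasts and Benjamini-Hochberg adjustment over all tested rows; called means adjusted p below 0.05. The procedure was tested on simulated data: in P2 against fed it called 84% of 50 simulated 2-fold changes and 34% of 50 simulated 1.5-fold changes among 18885 rows. The simulation changed only 50 rows at each of 1.5, 2, 3 and 4-fold, when 2400 rows were called in P2 against fed in the data. With fewer changed rows the adjusted threshold is stricter, so these shares do not measure recovery in the data. The genes and lists were chosen with earlier results of these data known. Every listed enzyme gene was named, with the 2 nearest profiles of each gene. From each other list and comparison, genes were drawn from up to 4 called ones with the largest changes, or were needed by a sentence. Not all of those were named, so some larger changes are not given. Alternatives were quantile normalization, median centring, 2 variance models, array weights, a fit to only the 2 groups compared, the brighter rows alone, a threshold of 0.01, averaging a gene over its rows, a replicate block, leaving out 1 array or the 3 arrays of narrowest spread (fed 2, P2 4, P3 3), removal of the trend with gene length, and inclusion of the omitted rows.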

Additional observations from a re-analysis of the deposited data

Results flagged for a closer look

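The Sod2 signal of array fed 2, 7.89 log2 units, lay far from the other 3 fed arrays (9.17 to 9.33): its gap to the nearest was 0.890 of the group's range, above Dixon's 95% critical value for 4 samples. It was the only such value among 40 groups of 4 arrays tested, and chance gives about 1 in 20. Fed 2 was the lowest fed array for all 10 genes.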

How the results depend on the processing

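Each gene in each comparison, called or not, was set against its result under each alternative. Under settings other than leaving out 1 array or the stricter threshold, 553 results kept direction and side of the threshold. In the same settings 18 calls were lost, 23 were gained and 6 changes reversed sign. With 1 array left out, 329 results were kept, 60 calls were lost, 6 were gained and 5 changes reversed sign. The 6 genes called in P2 against fed became 1 at a threshold of 0.01 and 3 without the 3 arrays of narrowest spread, and ranged from 2 to 5 when 1 array was left out. Without those 3 arrays the calls were 2 higher and 7 lower in P3 against P2 and 8 higher and 1 lower on re-feeding, where Sod2, Gsr and Gss were gained. The 7 in P3 against P2 became 2 at 0.01 (4 to 6 with 1 array out). The 1 in re-fed against fed became 0 at 0.01 and 0 after quantile normalization (5 with an unadjusted p under 0.05), 3 with array weights, and 0 to 1 with 1 array out. P3 against fed (6) ranged from 4 to 6 and re-feeding (6) from 5 to 8 with 1 array out. Quantile normalization turned the split of higher and lower calls in P2 against fed from 5 and 1 to 6 and 0, as Sod3 was lost and Gclm gained, and gave 5 and 2 on re-feeding. No scaling moved the median of all rows by over 0.1. Uncalled changes of 2 genes near 0 reversed, and the cause was not tested. Gsr in P2 against fed was -0.038 after median centring, -0.064 with array weights, -0.087 without the 3 narrow arrays, and -0.16 to 0.12 with 1 array out. Sod2 in P3 against fed was -0.13 with array weights, -0.24 without the 3 narrow arrays, -0.12 with the length trend removed, and -0.31 to 0.17 with 1 array out. Replicate numbers did not pair the arrays: deviations of same-numbered arrays correlated at -0.40 to 0.26 (median -0.01), 6 of 24 pairs exceeded 0.1, and 3 of 16 arrays correlated best with one of their own number. With the replicate block 5, 6, 7, 6 and 1 genes were called in the 5 comparisons, in the order P2 against fed, P3 against fed, P3 against P2, re-feeding and re-fed against fed; Sod2 in P2 against fed was the call lost (limma adjusted p = 0.053). The mean of all rows changed nothing, since each gene has 1 row. With 4 arrays a group, 1.5-fold changes were mostly missed in the simulation, which had fewer changed rows and so a stricter adjusted threshold than the data.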
